A study of Drosophila melanogaster with 34 samples.

Results

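Small RNA that co-purified with Piwi was compared between ovarian somatic cells (OSC) depleted of the linker histone H1 and control cells. The comparison took every transposon row of the deposited small RNA table, 129 in all, and the 2 small RNA samples among the 34 of the study. The H1-KD sample came from OSC given siRNA against H1, and the control from OSC given siRNA against EGFP, a sequence that fly cells lack. Both were transfected by electroporation and carry no other named alteration. OSC are a cultured Drosophila melanogaster line derived from the somatic cells of the ovary, so the cells stand for follicle-type somatic cells and not for the germline. The study also measured poly(A)+ RNA, chromatin accessibility and chromatin proteins on the same transposons after knockdown of Piwi, H1, HP1a or Maelstrom. RNA of H1 was not analysed here, so the depth of the knockdown is unknown and the H1-KD label was not checked by it, and protein-coding markers of OSC were likewise not analysed here.

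Piwi is the nuclear Argonaute protein of the piRNA pathway. In OSC its guide RNAs come largely from long precursor transcripts such as that of the flamenco locus, a graveyard of LTR retrotransposon fragments, and Piwi carrying them directs transcriptional silencing of matching transposons, with H3K9me3 and HP1a deposited on them. H1 binds the linker DNA between nucleosomes and is a part of compact chromatin. A guide RNA that matches a transposon can derive from a cluster or from the transposon's own transcript, and a value per consensus does not tell these sources apart. Each row is a consensus that stands for many genomic copies, so it has no single chromosome position.

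Values are RPM, reads scaled to the depth of the library, as deposited. The H1-KD library held 6973985 reads, of which 2335261 were on transposons, and the control library 7397276 reads, of which 2599067 were on transposons. Transposons thus took 33.5% of H1-KD reads (Wilson 95% interval 33.45 to 33.52) and 35.1% of control reads (35.10 to 35.17). At least 1 read was found for 126 transposons in H1-KD and for 124 in the control. A count of 0 allows up to 0.430 RPM in H1-KD and 0.406 RPM in the control. With 1 library a side there is no spread between replicates, no test was possible and no p-value is given. A change is the log2 of H1-KD over control after a pseudocount of 8.10 RPM is added to both, which understates the change of transposons near or below that level, and a fold is the plain ratio. Intervals are exact 95% intervals of the fold that cover counting error only and treat each read as a separate molecule. They may be too narrow, since reads amplified by PCR and lacking molecular identifiers need not come from separate molecules.

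The transposons that Piwi-bound small RNA matched most in the control were matched somewhat less in H1-KD, and many transposons with little of it in the control were matched several times more. Of 129 transposons, 43 (33.3%) passed 2-fold on the higher side in H1-KD and 0 (0%) on the lower side. In any degree 85 were higher and 41 lower, and 3 had no read in either library. The counting interval lay above a fold of 1 for 76 transposons, among them all 43, and below it for 37. The median change was 0.36. The order of the transposons by RPM was close in both libraries (Spearman's rho 0.94 over 129 transposons, which share the same 2 libraries).

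**Figure D1:**
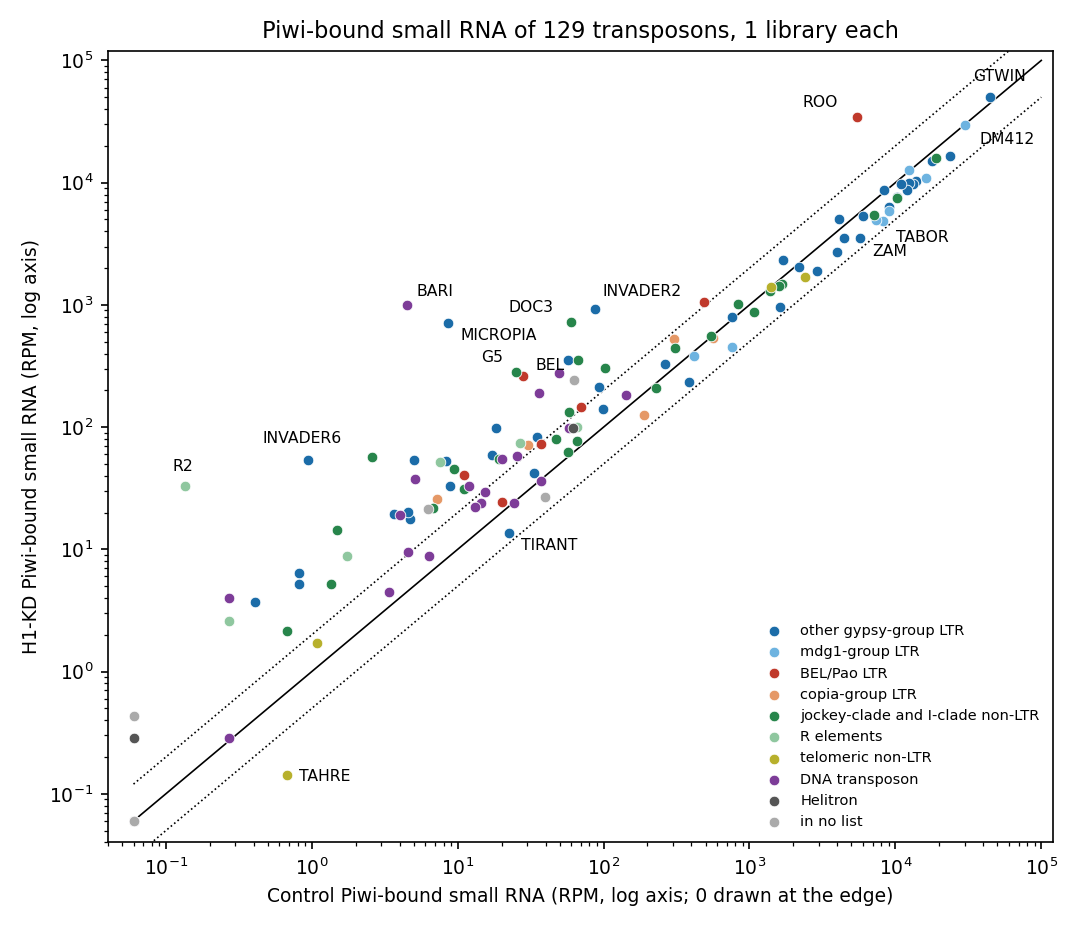
Piwi-bound small RNA of each transposon in H1-KD (vertical, RPM, log axis) against control (horizontal, RPM, log axis), 1 library each, coloured by element class; the solid line marks equal values, the dotted lines a plain 2-fold difference, and values of 0 are drawn at the edge. The abundant transposons at the upper right lie mostly below the line of equality and within 2-fold of it, with ROO well above and GTWIN slightly above it, and most of those under 100 RPM in the control lie above it.

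The summed transposon signal differed far less than its composition. All transposons together gave 334853 RPM in H1-KD and 351355 RPM in control, a fold of 0.953 (0.951 to 0.955). ROO, a BEL/Pao-type LTR element, made the largest single difference, 28890 RPM more in H1-KD. Without it the sums were 300501 RPM in H1-KD and 345892 RPM in control, a fold of 0.869. The 10 most abundant transposons of each library took 61.2% of transposon reads in H1-KD and 57.8% in control, and the 14 most abundant of each library shared 12 members.

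The difference was graded by how much small RNA a transposon had in the control. The 14 transposons at 10000 RPM or more in the control summed to 213690 RPM in H1-KD and 246570 RPM in control, with a median change of -0.37, and 12 of them were lower. The 22 between 1000 and 10000 RPM had a median of -0.32, and 18 were lower. Their sums were 105924 RPM in H1-KD and 96736 RPM in control, but without ROO these became 71571 RPM in H1-KD and 91274 RPM in control, a fold of 0.784 with a median of -0.35. So every transposon at 1000 RPM or more other than ROO stayed within 2-fold, from -0.77 to 0.45.

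At 100 to 1000 RPM the 15 transposons were spread on both sides, with a median of 0.08, which turns to -0.28 when the median transposon is set to no change. Of these, 2 were at least 2-fold higher, ROOA and DOC2. At 10 to 100 RPM, 21 of 40 transposons were at least 2-fold higher, the median was 1.03, and the sums were 5735 RPM in H1-KD and 1630 RPM in control, a fold of 3.52 (3.45 to 3.59). Under 10 RPM, 19 of 33 were at least 2-fold higher, the median was 1.04, and the sums were 2355 RPM in H1-KD and 123 RPM in control, a fold of 19.2 (18.0 to 20.6). The 5 transposons with no control read had at most 3 reads in H1-KD. These low groups together held 2.42% of transposon reads in H1-KD and 0.499% in control, so their high folds belong to a small part of the pool. All 43 transposons at least 2-fold higher, ROO among them, held 12.7% in H1-KD and 1.99% in control.

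**Figure D2:**
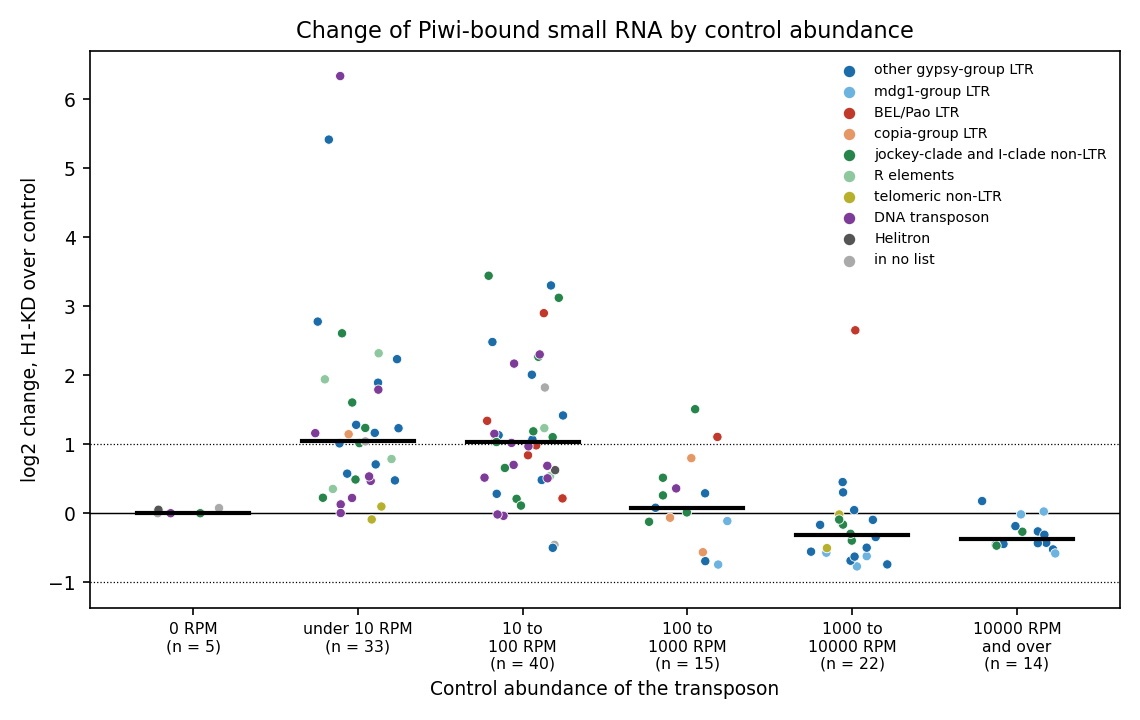
Change of Piwi-bound small RNA (vertical, log2 of H1-KD over control with the pseudocount) in groups of transposons by their control RPM (horizontal); each point is 1 transposon, coloured by class, the thick bars are medians and the dotted lines mark 2-fold. The medians are 1.04 and 1.03 in the groups under 10 and at 10 to 100 RPM, 0.08 at 100 to 1000 RPM, and -0.32 and -0.37 in the groups above.

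The control value both set the group and entered the change, so a control value that was low by counting error would make its transposon look higher; how much this adds was not tested. Grouping by the mean of both libraries gave medians of 0.35 under 10 RPM, 1.04 at 10 to 100, 0.89 at 100 to 1000, -0.42 at 1000 to 10000 and -0.27 at 10000 RPM or more. The groups of 10 to 1000 RPM were then the high ones, with 27 of 44 and 14 of 30 transposons at least 2-fold higher, and the group under 10 RPM had 1 of 17. The pseudocount of 8.10 RPM is close to the upper bound of that last group and draws its changes toward 0. Its median and count therefore do not tell whether its plain folds were low. Of the 43 transposons at least 2-fold higher, 40 had under 100 RPM in the control, 22 had under 100 control reads, and 16 reached 100 RPM in H1-KD.

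Most of the best-supplied elements were LTR retrotransposons of the gypsy and mdg1 groups, many of them known targets of Piwi in OSC, and the non-LTR elements DOC and I were also among the 14 at 10000 RPM or more in the control. GTWIN, an errantivirus, that is a gypsy-group element with an envelope-like gene, stood at 49947 RPM in H1-KD and 44194 RPM in control, a change of 0.18 that becomes -0.18 when the median transposon is set to no change. DM412, an mdg1-group element, stood at 29573 RPM in H1-KD and 29916 RPM in control, a change of -0.02 that becomes 0.05 when libraries are scaled to the transposon sum. These were the 2 largest pools of the control, and neither was far from its control level.

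GYPSY, the endogenous retrovirus that gave the group its name, had 16547 RPM in H1-KD and 23803 RPM in control, a fold of 0.695 (0.690 to 0.700). MDG1 had 10897 RPM in H1-KD and 16322 RPM in control, a fold of 0.668 (0.662 to 0.674). IDEFIX, an errantivirus controlled by flamenco, had 14909 RPM in H1-KD and 17897 RPM in control. The counting intervals of all 3 lay below a fold of 1, and none was lower by 2-fold. The non-LTR element DOC had 15863 RPM in H1-KD and 19106 RPM in control (change -0.27). The others of the 12 highest control values were GYPSY4 (-0.43), QUASIMODO (-0.43), STALKER4 (0.02, or -0.33 relative to the median transposon), GYPSY5 (-0.31), ROVER (-0.46) and DM297 (-0.19).

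Per kilobase of consensus the order at the top was nearly the same, with 1 newcomer. GTWIN ranked first in both libraries, with 7222 RPM per kb in H1-KD and 6390 in control, and DM412 ranked second, with 4250 RPM per kb in H1-KD and 4299 in control. ROO ranked 3 in H1-KD, with 3956 RPM per kb, and 29 in control, with 629 RPM per kb. DOC had 3357 RPM per kb in H1-KD and 4044 in control, and GYPSY 2368 in H1-KD and 3406 in control. Thus ROO stood in H1-KD between DM412 and DOC, which ranked 2 and 3 in the control.

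The list of 15 LTR elements known as Piwi targets in OSC had a median change of -0.50, with 13 lower, 2 higher (GTWIN and STALKER4) and 0 past 2-fold. The median was 0.36 over all transposons and -0.19 over the 51 at 100 RPM or more in the control. Of all 36 transposons at 1000 RPM or more in the control, 30 were lower, with a median of -0.33. These 36 include 14 members of the list, so the 2 sets are not separate. Abundant transposons outside the list, such as GYPSY4, ROVER and DOC, were lower too, so the direction was not particular to the list. The 14 list members at 100 RPM or more had a median of -0.47. The size of their difference was not compared with that of abundant transposons outside the list. The 15 list members summed to 189297 RPM in H1-KD and 220282 RPM in control and took 56.5% of transposon reads in H1-KD and 62.7% in control. Of the list, 14 members lay above 1000 RPM in the control, and TIRANT, at 13.5 RPM in H1-KD and 22.4 RPM in control, was the exception. Since the list was drawn up from knowledge of OSC, its direction is not independent evidence. The 11 errantiviruses with a measured row overlapped with it and had a median of -0.43, with 9 lower and 0 past 2-fold. The 8 mdg1-group elements had the lowest class median, -0.58, and 7 of them were lower.

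The 10 lowest changes ran from -0.77 to -0.56, and all were LTR elements. TABOR, an mdg1-group element, had 4819 RPM in H1-KD and 8227 RPM in control, a fold of 0.586 (0.578 to 0.594). STALKER3 had 450 RPM in H1-KD and 759 RPM in control (change -0.74), and GYPSY3 960 RPM in H1-KD and 1611 RPM in control (-0.74). ZAM, an errantivirus under flamenco control, had 3556 RPM in H1-KD and 5734 RPM in control, a fold of 0.620 (0.611 to 0.630). All 10 lay well short of 2-fold, and each rested on at least 881 reads in either library. GYPSY6A (-0.69), Gypsy1 (-0.63), BLOOD (-0.62), MDG1 (-0.58), STALKER2 (-0.57) and COPIA (-0.56) completed them. Relative to the median transposon, 5 of the 129 passed 2-fold on the lower side.

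**Figure D3:**
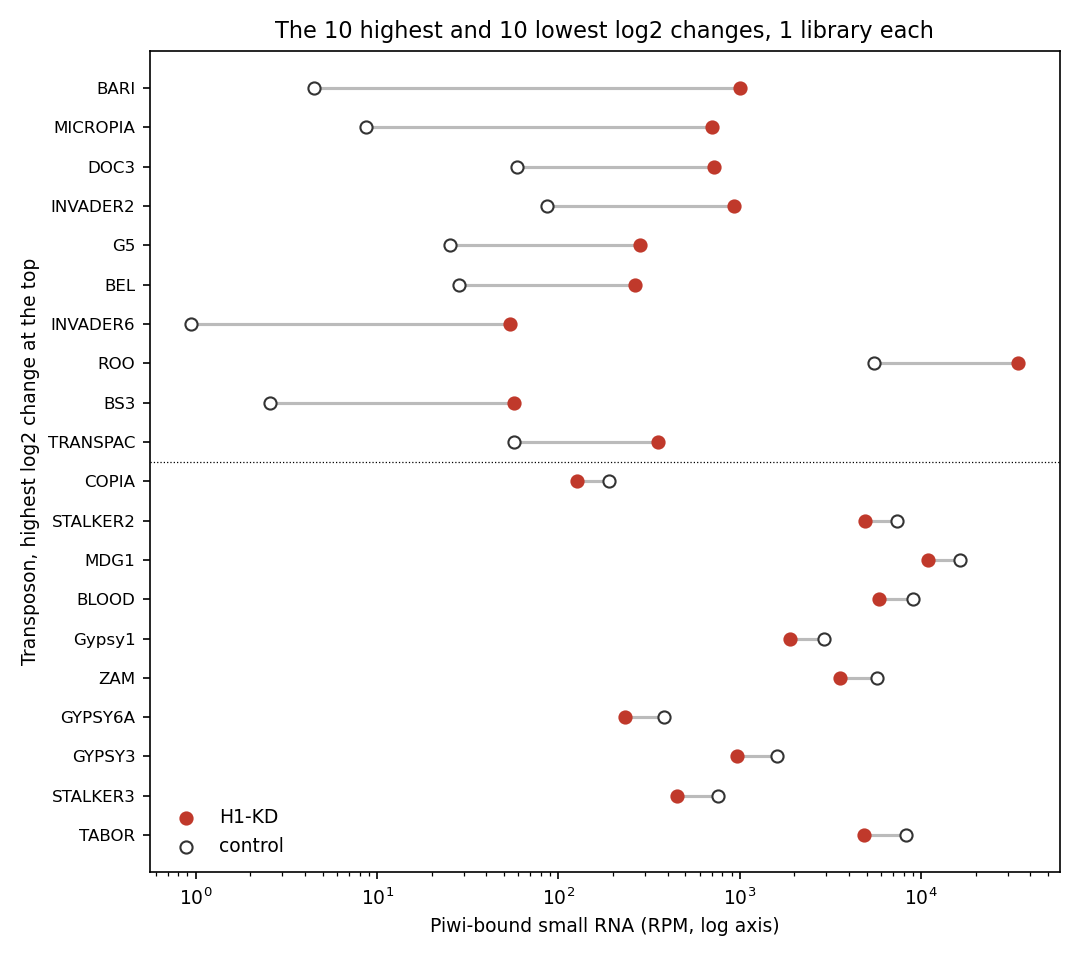
Piwi-bound small RNA (horizontal, RPM, log axis) in H1-KD (filled) and control (open), 1 library each, for the transposons with the 10 highest changes above the dotted line and the 10 lowest below it. The gaps of the upper 10 reach from a fold of 6.24 for TRANSPAC to 226 for BARI, and those of the lower 10 stay within a fold of 0.586 to 0.672.

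The highest changes came from several element types. BARI, a Tc1/mariner-type DNA transposon, had 1006 RPM in H1-KD and 4.46 RPM in control, that is 7018 reads in H1-KD against 33 in control, a change of 6.34 and a fold of 226 (160 to 328). MICROPIA, a gypsy-group LTR element, had 706 RPM in H1-KD and 8.65 RPM in control, from 4927 reads in H1-KD and 64 in control, a change of 5.41 and a fold of 81.7 (63.8 to 106). These 2 were nearly absent from the control and moderately abundant in H1-KD, where BARI ranked 37 of 129 by RPM and 106 in control. Next came DOC3, a jockey-clade non-LTR element that moves by reverse transcription at its target site, with 725 RPM in H1-KD and 59.4 RPM in control (change 3.44), and the LTR element INVADER2, with 927 RPM in H1-KD and 86.8 RPM in control (3.30).

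ROO, an LTR retrotransposon present in many copies in the fly genome, was the 1 element above 1000 RPM in the control that was at least 2-fold higher. It had 34352 RPM in H1-KD and 5462 RPM in control, from 239573 reads in H1-KD and 40406 in control, a change of 2.65 and a fold of 6.29 (6.22 to 6.36). Its share of transposon reads was 10.3% in H1-KD and 1.56% in control, and its rank by RPM was 2 in H1-KD and 23 in control. G5 (281 RPM in H1-KD and 25.1 in control, change 3.12), BEL (263 RPM in H1-KD and 28.3 in control, change 2.90) and TRANSPAC (354 RPM in H1-KD and 56.8 in control, change 2.48) followed at lower levels. INVADER6 (2.78) and BS3 (2.61) rested on 7 and 19 control reads. By the plain fold R2 stood as high as BARI, with 230 reads in H1-KD and 1 in control, but its interval of 43.4 to 9677 shows how little the single read tells.

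By class, the BEL/Pao and R elements had the highest medians and the mdg1 group the lowest, and the classes differed in control abundance. The order of the first pair depends on the low values, since with a pseudocount of 1 RPM the median was 1.67 for R elements and 1.12 for BEL/Pao elements. The 7 BEL/Pao elements were all higher, 4 at least 2-fold, with a median of 1.11 (0.75 relative to the median transposon). Under 100 RPM in the control, 2 of their 5 members passed 2-fold. Of all 78 transposons there, 51.3% did, and 70 were higher in any degree. The 7 BEL/Pao elements summed to 35956 RPM in H1-KD and 6115 RPM in control. ROO supplied most of this, and without it the sums were 1604 RPM in H1-KD and 653 RPM in control, a fold of 2.46 (2.37 to 2.54). ROOA, a relative of ROO, had 1056 RPM in H1-KD and 487 RPM in control (1.11), and MAX had 40.4 RPM in H1-KD and 11.1 RPM in control (1.34). BATUMI (0.98), DIVER (0.84) and DIVER2 (0.21) were higher but did not pass 2-fold with the pseudocount, although the plain fold of BATUMI was 2.09 (1.88 to 2.33). The counting interval of DIVER2 alone in this class included a fold of 1.

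**Figure D4:**
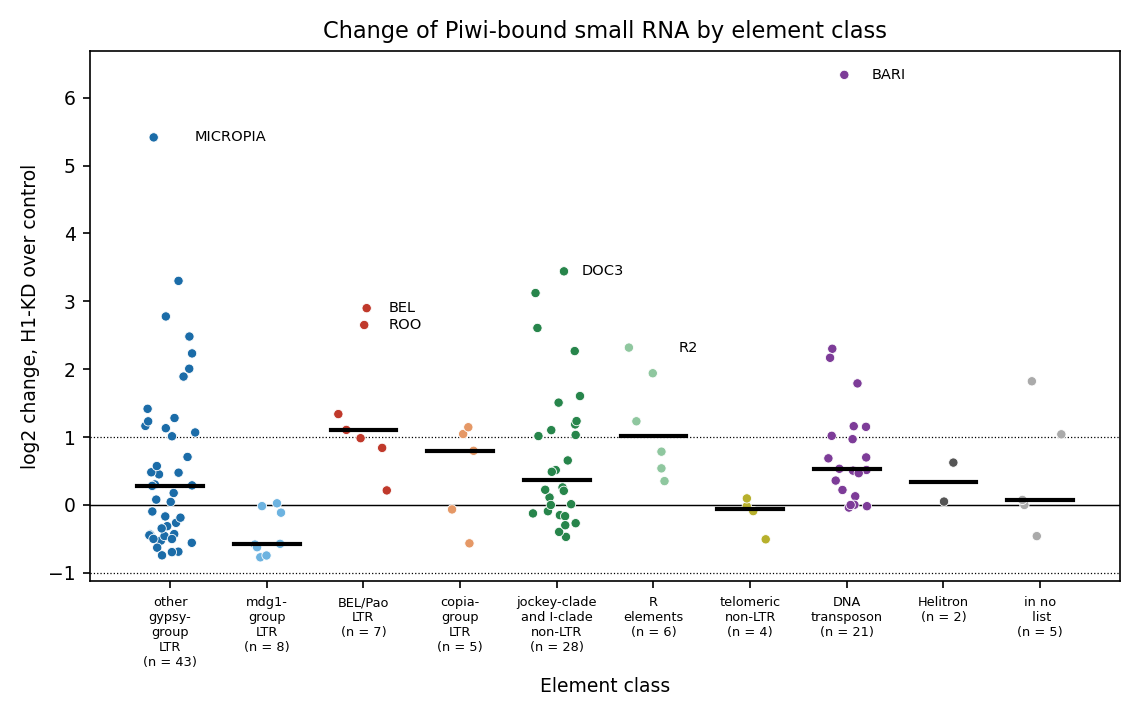
Change of Piwi-bound small RNA (vertical, log2 of H1-KD over control with the pseudocount) by element class (horizontal); each point is 1 transposon, the thick bars are class medians and the dotted lines mark 2-fold. The BEL/Pao and R elements have the highest medians, 1.11 and 1.01, the mdg1 group the lowest, -0.58, and the other gypsy-group, jockey-clade and I-clade, and DNA elements spread on both sides of 0 or above it.

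The 6 R elements, a group of non-LTR retrotransposons whose best known members R1 and R2 insert into ribosomal RNA genes, were all higher, and 3 passed 2-fold. Their median was 1.01, equal to the median of the 78 transposons under 100 RPM in the control, where all 6 lay and where 51.3% passed 2-fold. They were scarce, with 270 RPM in H1-KD and 102 RPM in control summed. R1 had 73.8 RPM in H1-KD and 26.8 RPM in control (1.23), DMRT1A 52.1 RPM in H1-KD and 7.57 RPM in control (1.94), and R2 33.0 RPM in H1-KD and 0.135 RPM in control (2.32). DMRT1C, DMRT1B and R1-2 lay between 0.35 and 0.79. The telomeric elements, which maintain fly chromosome ends, had 0 of 4 past 2-fold. Of all 22 transposons at 1000 to 10000 RPM in the control, the group of TART and TART_B1, 1 passed. TART had 1693 RPM in H1-KD and 2406 RPM in control (-0.51), and TART_B1 1390 RPM in H1-KD and 1408 RPM in control (-0.02, or 0.05 scaled to the transposon sum). HETA had 12 reads in H1-KD and 8 in control, and TAHRE 1 in H1-KD and 5 in control, too few to show a difference.

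Of the 21 DNA transposons, 7 were at least 2-fold higher, the same share as over all transposons, 18 were higher in any degree and 0 had an interval below a fold of 1, with a median of 0.53. Under 100 RPM in the control, 7 of 20 DNA transposons passed 2-fold, against 51.3% of all. Without BARI they summed to 1115 RPM in H1-KD and 472 RPM in control, a fold of 2.36. PROTOP, the most abundant in the control, had 184 RPM in H1-KD and 142 RPM in control (0.36), and HOBO, a transposon that can still move in flies, had 98.7 RPM in H1-KD and 57.6 RPM in control (0.70). TC1-2 (2.30) and TRANSIB2 (2.17) came after BARI, followed by TRANSIB3 (1.79), POGO (1.16), Transib5 (1.15) and S (1.02), and these were chosen for mention after their values were seen. TC1, at 36.1 RPM in H1-KD and 37.3 RPM in control, and Transib4, at 23.8 RPM in H1-KD and 24.2 RPM in control, were even.

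The 2 largest classes were also split by control abundance. Of the 43 other gypsy-group elements, 14 of the 20 under 100 RPM in the control were at least 2-fold higher (median 1.20), against 0 of the 23 at or above it (median -0.35). Of the 28 jockey-clade and I-clade elements, 10 of 16 under 100 RPM were at least 2-fold higher (median 1.07), and 1 of 12 at or above it (median -0.14). The class medians, 0.28 and 0.37, therefore mixed unlike subsets, and that of the gypsy-group elements becomes -0.08 relative to the median transposon. The split at 100 RPM was chosen after the values were seen. It rests on the control value, which also enters the change, and grouping by the mean of both libraries was not done within classes. In BEL/Pao elements both members above 100 RPM, ROO and ROOA, were at least 2-fold higher, and 2 of the 5 under it were (median 0.98). ROO and ROOA are relatives, and how reads that match both were assigned is not known, so they say little about the class.

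Members of 1 family by name also diverged. Among the 6 DOC elements, DOC3 (3.44), DOC2 (1.51) and DOC5 (1.10) were at least 2-fold higher, while DOC (-0.27) and DOC6 (-0.16) were lower and DOC4 (0.21) was close to even. All 6 INVADER elements were higher, 3 at least 2-fold. The BS family had 3 of 4 and the G family 3 of 8 at least 2-fold higher, against 33.3% of all transposons. All INVADER and BS members lay under 100 RPM in the control, where 51.3% of all 78 transposons passed 2-fold and 70 were higher. Among 16 entries named gypsy the median was -0.33, with 9 lower in any degree and 4 past 2-fold on the higher side. No source used here says how a read that matches related families was assigned, so differences within a family are uncertain.

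The 5 copia-group elements had a median of 0.80. Copia1 had 530 RPM in H1-KD and 302 RPM in control (0.80), DM1731 70.8 RPM in H1-KD and 30.2 RPM in control (1.05), and FROGGER 25.7 RPM in H1-KD and 7.16 RPM in control (1.14). COPIA itself was lower, with 126 RPM in H1-KD and 191 RPM in control, and COPIA2 was about even, with 539 RPM in H1-KD and 565 RPM in control. A list of 19 transposons described as germline-dominant had a median of 0.29, near that of all transposons. Of these, 6 (31.6%, against 33.3% of all) were at least 2-fold higher, among them ROO, BARI and TRANSPAC. The list was drawn up with earlier results of these data known, so its values are not independent evidence. The 19 summed to 70020 RPM in H1-KD and 47592 RPM in control, but without ROO to 35667 RPM in H1-KD and 42130 RPM in control, a fold of 0.847 (0.842 to 0.851). In both libraries they included abundant elements such as DOC and the I element, known from hybrid dysgenesis, at 7429 RPM in H1-KD and 10293 RPM in control, while HETA and TAHRE had at most 12 reads.

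The same transposons were next set beside their poly(A)+ RNA, measured as RPKM in 1 H1-KD and 1 control library that took no part in the small RNA values. RNA of 69 transposons (53.5%) was at least 2-fold higher in H1-KD and that of 0 (0%) at least 2-fold lower. Both readouts were at least 2-fold higher for 29 transposons, which is 67.4% of the 43 called by small RNA and 42.0% of the 69 called by RNA. Over all 129 transposons the 2 changes were hardly related (Spearman's rho 0.11). Among the 78 under 100 RPM in the control rho was 0.43, and among the 51 at or above it -0.03. In the low group, the small RNA change also followed the control input, a readout of genomic copy number (0.50), and consensus length (0.39). The pseudocount of 8.10 RPM draws the change of transposons near or below that level toward 0. Any part of these in the rho of 0.43 was not tested. The transposons share their libraries, so these values describe these libraries only.

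**Figure D5:**
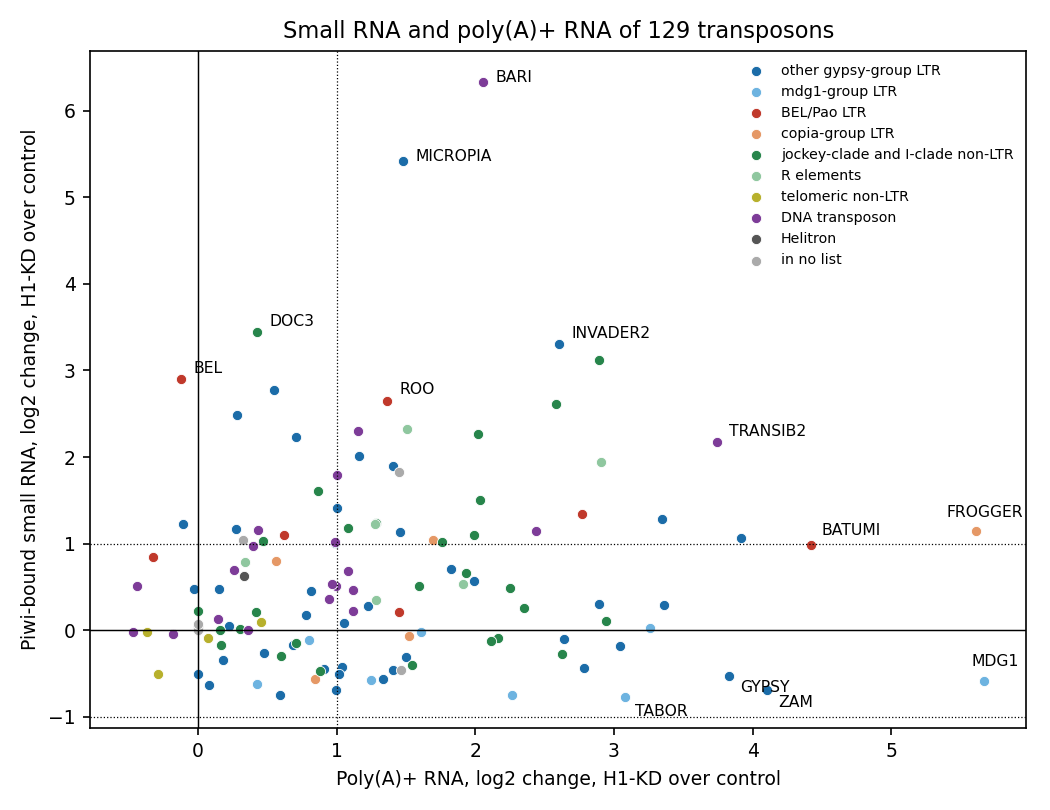
Change of Piwi-bound small RNA (vertical) against change of poly(A)+ RNA (horizontal), both log2 of H1-KD over control with a pseudocount, for 129 transposons coloured by class; dotted lines mark 2-fold. The transposons with the highest RNA change, MDG1 at 5.67 and FROGGER at 5.61, have small RNA changes of -0.58 and 1.14, and BARI, highest in small RNA, has an RNA change of 2.06.

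At MDG1, GYPSY and ZAM, higher RNA stood beside lower Piwi-bound small RNA. MDG1 had 1742 RPKM of RNA in H1-KD and 33.8 in control with a small RNA fold of 0.668, GYPSY 524 RPKM in H1-KD and 36.2 in control with 0.695, and ZAM 66.1 RPKM in H1-KD and 3.32 in control with 0.620. Conversely BEL had 160 RPKM of RNA in H1-KD and 174 in control, against a 9.31-fold higher small RNA value. DOC3 and TRANSPAC likewise had RNA changes of 0.43 and 0.28, beside small RNA changes of 3.44 and 2.48. BARI, MICROPIA and ROO were higher in both, with RNA of 3.42 RPKM in H1-KD and 0.403 in control for BARI, 1.70 in H1-KD and 0.256 in control for MICROPIA, and an RNA change of 1.37 for ROO.

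Accessibility by ATAC-seq, given as 1 column per condition for 2 samples each, was at least 1.5-fold higher in H1-KD for 12 of 129 transposons (9.3%) and lower for 2 (1.55%). Of the 43 transposons with at least 2-fold more small RNA, 0 were among the 12 or the 2. Of the 10 lowest small RNA changes, 4 were among the 12, namely COPIA, MDG1, STALKER2 and TABOR. Control abundance differed between these sets, since 40 of the 43 had under 100 RPM of small RNA in the control. Of all 78 transposons under 100 RPM, 2 were at least 1.5-fold higher in accessibility, so 0 among the 43 was near that share. Of the 51 at or above 100 RPM, 10 were at least 1.5-fold higher.

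H3K9me3 over input could be compared for 91 transposons, of which 4 (4.4%) were at least 1.5-fold higher in H1-KD and 7 (7.69%) lower. Among the 10 lowest small RNA changes, 8 were measured and 4 had lower H3K9me3: BLOOD, with 1.20 in H1-KD and 2.84 in control, STALKER2, with 1.42 in H1-KD and 3.03 in control, MDG1, with 2.53 in H1-KD and 4.20 in control, and Gypsy1, with 2.25 in H1-KD and 3.45 in control. Among the 43 transposons with at least 2-fold more small RNA, 33 were measured, and BARI alone was lower, with 1.65 in H1-KD and 2.59 in control. The 10 lowest all had 100 RPM or more of small RNA in the control, where 6 of 47 measured transposons had lower H3K9me3. Under 100 RPM, 1 of 44 did. Spearman's rho between the changes of small RNA and H3K9me3 was 0.34 over the 91, 0.25 at 100 RPM or more and -0.20 under 100 RPM. HP1a over input was at least 1.5-fold higher for 2 of 93 transposons (2.15%) and lower for 2 (2.15%), and the lower ones were BLOOD and STALKER2. The higher ones were GTWIN, with 3.44 in H1-KD and 2.21 in control, and GYPSY11, with 2.71 in H1-KD and 1.29 in control. GYPSY11, whose small RNA change was 1.13, was also at least 1.5-fold higher in H3K9me3, with 3.60 in H1-KD and 2.06 in control. Input itself, which reflects copy number, had a median change of 0.03 over all transposons, 0.04 over the 43 and 0.03 over the 10 lowest. Any part of these readouts in the small RNA differences was not tested.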

How the data were processed

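The tables that the authors deposited give 1 value for each transposon consensus in each library. Small RNA was deposited as RPM, scaled by depth alone, and all other deposited readouts as RPKM, scaled by depth and length. No source used here names the units, which were deduced from the values: with 1 whole-number total per column and 1 whole-number length per transposon (found for 128 of 129, 186 to 14477 bp), 2372 of 2372 nonzero values in 19 columns gave whole reads within 0.05. Which reads the totals count is not given. Per the submitters' processing notes, small RNA, ChIP and input were processed with cutadapt and Bowtie 1.0.1 on dm3. Per the labels, Piwi was immunoprecipitated and its RNA extracted before library preparation.

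The log2 change was log2((H1-KD + p)/(control + p)), with p equal to 0.1 of the median nonzero value of a table (8.10 RPM for small RNA, 0.553 RPKM for RNA, 5.80 RPKM for ATAC, 4.53 RPKM for input). All 129 transposons were kept, and changes were counted at 2-fold (1.5-fold for chromatin). ChIP values were taken over their matching input as a plain ratio for transposons with at least 50 reads in each of the 4 libraries. That rule was chosen after seeing the data, since pseudocounts gave high ratios at transposons without reads. Fold intervals are Clopper-Pearson intervals at 95%, and the limit for a count of 0 is 3 reads. Calculations used Python 3.11.15, pandas 2.3.3 and scipy 1.17.1 and were tested on simulated data.

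The comparison, the element lists and the rule for named transposons were chosen with earlier results of these data known. Named are the 12 highest control values, the 10 highest and 10 lowest changes, the 2 most abundant members of each class, the extremes of each abundance group and the Piwi target list. Members of small classes and families, the subsets without ROO or BARI and the scaling without ROO were added after their values were seen. Other pseudocounts, filters, scalings and groupings were tried.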

Additional observations from a re-analysis of the deposited data

How the results depend on the processing

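A median was taken as moved when it left the range given by the medians of its members' counting bounds. The transposons counted as at least 2-fold higher numbered 18 with a pseudocount of 0.5 of the median nonzero value and 23 relative to the median transposon, and 33 to 52 under the other alternatives at that threshold. The count at least 2-fold lower was 5 relative to the median transposon, and 7 at a 1.5-fold threshold. Only scaling to the median transposon turned medians round, which follows from its subtraction of 0.36: other gypsy-group elements came to -0.078, Helitrons to -0.022, unlisted elements to -0.29, and the groups at 0 RPM and at 100 to 1000 RPM to -0.36 and -0.28. On that scale the median of all transposons was 0, mdg1-group elements had -0.94, BEL/Pao 0.75, copia-group 0.44, jockey-clade and I-clade 0.014, telomeric -0.41 and DNA elements 0.17, and the abundance groups from under 10 RPM to 10000 RPM and over had 0.68, 0.67, then -0.68 and -0.73. Scaling to the transposon sum gave 0.34 for other gypsy-group, -0.51 for mdg1-group and 1.17 for BEL/Pao elements, and 0.15, -0.25 and -0.30 for the 3 groups from 100 RPM up.

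With a pseudocount of 1 RPM the medians were -0.26 for telomeric, 0.90 for DNA, 0.52 for Helitron and 0.52 for unlisted elements, and 1.84 under 10 RPM. With 0.5 of the median nonzero value they were 0.16 for all transposons, 0.76 for BEL/Pao, 0.47 for copia-group and 0.23 for Helitron elements, 0.40 under 10 RPM and 0.61 at 10 to 100 RPM. Leaving out the lowest 25% of transposons gave 0.045 for other gypsy-group, 0.37 for copia-group, -0.26 for telomeric, 0.99 for DNA, 0.62 for Helitron and 0.68 for unlisted elements, and 2.23 under 10 RPM. Keeping transposons with at least 100 reads, chosen after seeing the data, gave -0.26 for telomeric, 0.62 for Helitron and 1.04 for unlisted elements. Grouping by the mean of both libraries gave 0.35 under 10 RPM, then 0.89, -0.42 and -0.27 for the 3 groups from 100 RPM up. In 4 groups of equal number by control value the medians were 0.57, 1.11, 0.32 and -0.41, low to high, and the lowest group exceeded the highest by 0.99, against 1.41 between the groups under 10 RPM and at 10000 RPM and over. ChIP over input with pseudocounts over all 129 transposons gave 2 with higher H3K9me3 and 0 with higher HP1a. The cause of these shifts was not tested.

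Of 51 named transposons 0 changed direction with either pseudocount, 4 did relative to the median transposon (GTWIN, STALKER4, HELITRON1 and TLD1) and 3 when scaled to the transposon sum (DM412, COPIA2 and TART_B1). No paired analysis was possible because each condition had 1 small RNA library. With 1 library a side, differences between cultures cannot be told apart from the effect of H1-KD, and under 10 RPM the folds rest on at most 70 control reads each.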
